A study of Mus musculus with 7 samples.

Results

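Erythroid cells are the red cell precursors of the bone marrow, and the genes that build the red cell were followed here in bone RNA. The set was named as 35 symbols that code for erythroid transcription factors, heme synthesis, iron and porphyrin transport, alpha globin, red cell membrane proteins and proteins of red cell maturation. Of these, 34 were found among the 27179 genes counted, and all 34 passed the filter on low counts and were among the 15098 genes tested. Ahsp, which codes for the alpha globin chaperone, was not analysed here because its symbol matched no gene.

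The RNA came from femoral cortical bone of 12-week-old female mice after the marrow had been flushed out. Libraries from 3 mice labelled Dmp1Cre.EfnB2f/f (f/f 1 to 3) were compared with libraries from 4 Dmp1Cre mice (controls 1 to 4), to ask what changes in bone when ephrin B2 is removed from late osteoblasts and osteocytes. Cre recombinase was driven by a Dmp1 promoter fragment, which is active in late osteoblasts and osteocytes, and the controls carried the same Cre without the floxed Efnb2 allele. The mice were littermates or cousins on a C57BL/6 background, and all had received calcein and been fasted before collection. By the labels, f/f 1 and f/f 2 came from one parent cross, controls 1 and 2 from another, and control 4 from a further one, while f/f 3 and control 3 shared a cross.

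Erythroid precursors commit to the lineage under the transcription factors Gata1, Tal1 and Klf1. They then take up iron through the transferrin receptor, make heme in a chain of enzymes that begins and ends in the mitochondrion, fill with globin, lay down a spectrin skeleton under the membrane and expel the nucleus. These steps take place in marrow, which had been flushed from these bones. In bulk RNA fewer erythroid cells and less RNA per cell cannot be told apart.

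The libraries held 17245556 to 22075778 counts. Efnb2, the targeted gene, had 17.9, 13.1 and 11.8 CPM in f/f 1 to 3 and 8.49, 7.93, 6.44 and 6.36 CPM in controls 1 to 4 (CPM, read counts scaled to library size after TMM normalization, the scale of all levels here unless stated). Its level was thus higher in every library labelled Dmp1Cre.EfnB2f/f than in any control, which is not the direction of a loss. These counts take in the whole gene and all cells of the bone, so they cannot test deletion in the targeted cells. In sorted osteocytes, the study reported loss of the targeted region of the transcript, which was kept in other cells. All directions given here are those of the labelled groups. Reads over the floxed exon were not counted apart. Bone markers were present in all libraries, and their summed level was 15068 to 24679 CPM in the f/f libraries and 14415 to 71985 CPM in the controls. No 2 libraries of a genotype were alike within sampling noise. The study collected its samples on 2 days. Day 1 gave 2 f/f and 3 control samples, day 2 gave 1 of each genotype, and the study fitted day as a block. Nothing in the labels ties a library to a day of collection, so no fit here takes day into account.

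The erythroid genes had lower means in the f/f libraries, by an amount that did not pass the test. The fitted log2 fold change (f/f minus control) was below 0 in 33 of 34 genes, with a median of -0.68 and a range from -1.34 for Hba-a1 to 0.18 for Car1, where the median over all genes tested was 0.01. With edgeR's quasi-likelihood test and Benjamini-Hochberg adjustment, 0 of the 34 genes had an adjusted p under 0.05 (0% of all genes did), and the lowest adjusted p among them was 0.511. At an unadjusted p under 0.05, 19 of the 34 were lower in the f/f libraries and 0 were higher, where 5.03% of all genes were lower and 4.63% higher. In 17 genes every f/f library lay below every control, as it did in 6.3% of all genes. The count of 19 changed when single libraries were left out. It was 1 without f/f 1, 3 without f/f 2 and 8 without control 4. The share of all genes that were lower also went down, to 1.04%, 1.78% and 3.17% in the same order. The median log2 fold change was -0.53, -0.66 and -0.46 in that order, with 32, 33 and 33 of 34 values negative. Without f/f 2 the count thus fell while the median hardly moved, and each such fit has fewer mice to test with. The other tools called more. DESeq2 placed 1 of the 34 genes, Tspo2, past an adjusted p of 0.05 (0.318% of all genes, lower), and the limma pipeline of the study without its day block placed 18 there, all lower (7.39% of all genes, lower). That pipeline weights libraries, and its weights ran from 0.168 for control 4 and 0.193 for control 1 to 7.28 for f/f 2.

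**Figure D1:**
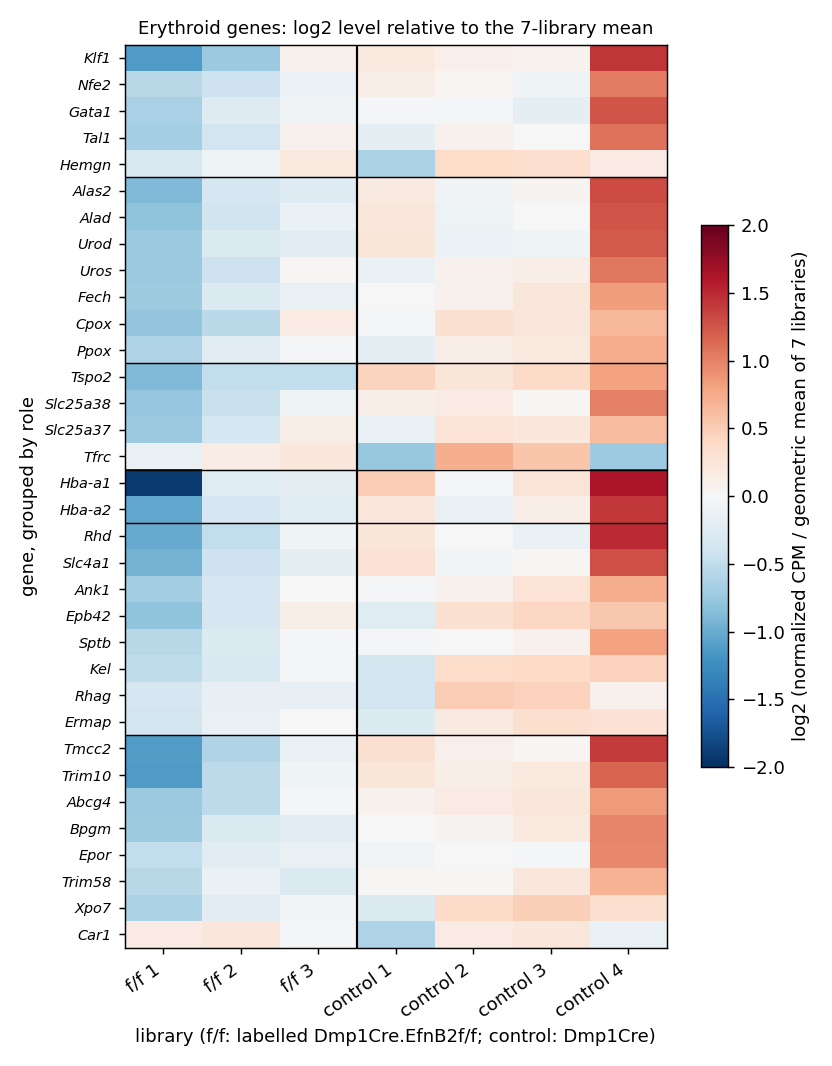
Heat map of the log2 level of 34 erythroid genes (rows, grouped by role) in 7 libraries (columns), each relative to the mean log2 level of the gene over the 7 libraries (colour, log2 units). Control 4 is the highest library in 28 genes and f/f 1 the lowest in 30.

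The 7 libraries did not fall into 2 even groups. Relative to each gene's mean over the 7 libraries, the median log2 deviation of the 34 genes was -0.72, -0.33 and -0.08 in f/f 1 to 3 and -0.02, 0.10, 0.20 and 0.91 in controls 1 to 4. Control 4 was thus the high library and f/f 1 the low one, and f/f 3 lay closer to controls 1 to 3 than to f/f 1. Control 4 was the highest of all libraries in 28 genes, f/f 1 the lowest in 30 and control 1 the lowest in the other 4 (Hemgn, Rhag, Tfrc and Car1). All of the controls exceeded f/f 1 in 30 genes, f/f 2 in 27 and f/f 3 in 17. Counts of all globin genes (symbols that begin with Hba, Hbb or Hbq) made up 0.807%, 1.52% and 1.67% of all counts in f/f 1 to 3 and 2.27%, 2.02%, 2.11% and 4.64% in controls 1 to 4.

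The regulators are transcription factors and nuclear proteins of the erythroid lineage. All 5 had negative log2 fold changes (median -0.69), and 2 of them, Klf1 and Nfe2, had an unadjusted p under 0.05 (5.03% of all genes, lower). Klf1, a zinc finger factor that activates globin and many other erythroid genes, is on chromosome 8 (84901982 to 84905291, GRCm38). It had 64.5, 85.2 and 151 CPM in f/f 1 to 3 and 162, 153, 149 and 384 CPM in controls 1 to 4. The difference therefore lay in f/f 1, f/f 2 and control 4, while f/f 3 stood level with controls 2 and 3. Its log2 fold change was -1.08 (SE 0.43), and -0.63 (SE 0.30) without control 4. Klf1 was among the top genes the study listed from these libraries, as were Tspo2 and Abcg4, so their low values are not independent evidence. The study's own fit, with a day block, had placed all 3 as lower at a false discovery rate under 0.05. The study's text named Klf1 and Tspo2 among the top genes that it linked to autophagy, a reading that was not tested here. Gata1, the factor on which red cell and platelet precursors depend, had 67.4, 88.1 and 101 CPM in f/f 1 to 3 against 104, 103, 92.2 and 251 CPM in the controls, and its log2 fold change of -0.69 (SE 0.37) was -0.23 (SE 0.18) without control 4. Most of the Gata1 difference was thus carried by a single control. Tal1, a partner of Gata1, had 121, 149 and 206 CPM against 171, 207, 194 and 411 CPM, so that f/f 3 reached the level of control 2. Nfe2, which binds DNA together with small Maf proteins, had 110.0, 122 and 149 CPM against 175, 167, 153 and 328 CPM, and its groups did not overlap (log2 fold change -0.70, SE 0.29). Hemgn, a nuclear protein of blood precursors, went with control 1 rather than with genotype. It had 207, 243 and 297 CPM in f/f 1 to 3 and 166, 332, 329 and 292 CPM in controls 1 to 4 (log2 fold change -0.17, SE 0.27).

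For 4 members the 250 bases before an annotated transcript start are given (RefSeq, GRCm38.p6, 5′ to 3′ on the strand of the gene), since these genes head the groups of regulators, heme synthesis, transport and globins. Capitals mark matches, on either strand, to a GATA motif (AGATAA and AGATAG, or the same letters begun with T in place of the A), to the KLF motif CCNCNCCC or to the TATA motif TATAAA, and overlapping matches are run together.
Klf1, chr8:84901732-84901981, plus strand: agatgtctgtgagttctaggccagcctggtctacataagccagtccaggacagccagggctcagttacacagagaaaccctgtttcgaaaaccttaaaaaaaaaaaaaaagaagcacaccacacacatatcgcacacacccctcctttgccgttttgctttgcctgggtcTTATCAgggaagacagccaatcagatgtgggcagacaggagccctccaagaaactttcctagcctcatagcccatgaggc
Alas2, chrX:150547167-150547416, plus strand: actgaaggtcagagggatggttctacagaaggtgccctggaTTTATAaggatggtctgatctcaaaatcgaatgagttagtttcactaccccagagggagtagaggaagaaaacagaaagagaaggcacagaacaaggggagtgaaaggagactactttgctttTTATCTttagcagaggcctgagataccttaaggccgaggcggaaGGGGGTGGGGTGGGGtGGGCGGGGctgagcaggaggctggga
Tspo2, chr17:48451502-48451751, minus strand: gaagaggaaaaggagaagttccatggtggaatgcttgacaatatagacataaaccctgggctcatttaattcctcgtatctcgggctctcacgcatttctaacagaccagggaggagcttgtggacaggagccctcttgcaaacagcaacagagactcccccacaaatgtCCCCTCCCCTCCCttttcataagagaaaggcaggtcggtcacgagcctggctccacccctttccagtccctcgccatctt
Hba-a1, chr11:32283422-32283671, plus strand: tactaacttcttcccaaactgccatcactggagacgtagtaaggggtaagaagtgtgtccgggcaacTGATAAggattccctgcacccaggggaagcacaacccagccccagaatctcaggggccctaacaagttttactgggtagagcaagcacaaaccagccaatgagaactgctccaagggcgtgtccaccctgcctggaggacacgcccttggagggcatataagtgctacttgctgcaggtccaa
In these windows Klf1 held 1 GATA match (bases -80 to -75 from the start), Hba-a1 held 1 (-183 to -178), and Tspo2 held 2 overlapping KLF matches (-80 to -68). The start used for Tspo2 lies inside the gene span given for it here, so the last part of its window is within the annotated gene and its positions do not count from the outer end of the gene. Alas2 held 1 GATA match (-86 to -81), 4 KLF matches, in part overlapping (-42 to -19), and 1 TATA match on the opposite strand (-209 to -204). RefSeq windows that also take in the bases just after the start were at hand for 26 of the 34 genes, with 32 windows in all. A GATA motif was in 18 of the 32 (56.2%), against 29.8% of all 32851 windows, and the KLF motif in 20 (62.5%), against 49.5%. The NF-E2 core TGAGTCA was in 2 (6.25%, against 5.2%) and TATAAA in 4 (12.5%, against 13.6%). On the strand of the gene alone, a GATA motif was in 21.9% of the member windows and 17% of all, and the KLF motif in 25% and 29.1%. A match is a run of letters and says nothing of whether a factor binds there.

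Heme is made from glycine and succinyl-CoA by a chain of enzymes, and 7 genes of this chain were in the set. All 7 had negative log2 fold changes, from -0.95 to -0.53 (median -0.70), 5 of them with an unadjusted p under 0.05 (5.03% of all genes, lower). In 4 (Alas2, Alad, Urod and Fech) the groups did not overlap (6.3% of all genes, lower). Alas2, the erythroid enzyme that begins the chain and limits its rate (chromosome X, 150547417 to 150570622), had 747, 1095 and 1155 CPM in f/f 1 to 3 and 1566, 1311, 1429 and 3422 CPM in controls 1 to 4. Every f/f library was below every control, and control 4 stood at 2.38 times the mean of the other controls. The groups averaged 999 ± 220.0 CPM (SD, n = 3) and 1932 ± 999 CPM (SD, n = 4). The log2 fold change of -0.95 (SE 0.39) was -0.52 (SE 0.23) without control 4. Its promoter window is the one above with 4 KLF matches. Alas2 overlaps Apex2, with which reads could be shared.

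The enzymes after Alas2 varied over the libraries in much the same way. Alad, which joins aminolevulinic acid molecules into the pyrrole ring, had 107, 142 and 170 CPM in the f/f libraries and 218, 175, 186 and 445 CPM in the controls. Urod, which trims the side chains of the ring, had 137, 187 and 195 CPM against 269, 211, 214 and 534 CPM. In both, control 4 stood at 2.31 times the mean of the other controls. Fech, which places iron in the finished ring, had 370.0, 503 and 544 CPM against 601, 645, 703 and 1077 CPM, again with no overlap (log2 fold change -0.68, SE 0.27). Cpox and Ppox, which carry out the oxidations before Fech, differed from these in control 1. Cpox had 112, 133 and 217 CPM against 190.0, 239, 226 and 309 CPM, and Ppox 77.7, 102 and 116 CPM against 104, 131, 137 and 197 CPM, so that f/f 3 was above control 1 in both. Uros, which closes the ring, had a log2 fold change of -0.70 (SE 0.32) and overlaps Bccip.

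Of the 4 transport genes, Tspo2 had the most even difference of the whole set. Tspo2, a translocator protein family member made in erythroid cells (chromosome 17, 48447942 to 48451564), had 31.3, 41.2 and 41.2 CPM in f/f 1 to 3 and 78.8, 68.4, 75.6 and 102 CPM in controls 1 to 4. All f/f libraries lay below all controls, and control 4 was only 1.37 times the mean of the other controls. The log2 fold change was -1.10 (SE 0.20), the lowest unadjusted p of the set in edgeR (0.000378), and its adjusted p was 0.511 with the same tool. Without control 4 it was -0.97 (SE 0.16), and between f/f 3 and control 3, which share a cross, the log2 difference was -0.87. The adjusted p was 0.000506 with DESeq2 and 0.00956 with the limma pipeline, so the tools differed on whether Tspo2 passed. Slc25a38, the mitochondrial glycine carrier that feeds Alas2, had 41.9, 52.7 and 67.2 CPM in the f/f libraries and 78.2, 80.4, 72.6 and 145 CPM in the controls. Its groups did not overlap (log2 fold change -0.80, SE 0.29). Slc25a37, mitoferrin, which brings iron into the mitochondrion, had 414, 542 and 752 CPM against 633, 838, 801 and 1062 CPM, with f/f 3 above control 1.

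Tfrc, the transferrin receptor through which precursors take up iron, did not follow the other transport genes. It had 560.0, 688 and 717 CPM in f/f 1 to 3 and 367, 1025, 906 and 373 CPM in controls 1 to 4. The controls formed a low pair (controls 1 and 4) and a high pair (controls 2 and 3), with the f/f libraries in between. The group means were 655 ± 84.0 CPM (SD, n = 3) and 668 ± 347 CPM (SD, n = 4), and the log2 fold change was -0.03 (SE 0.40). Its sign turned with single libraries, being 0.07 without f/f 1, 0.26 without control 2 and 0.16 without control 3, and also with scaling to library size alone (0.01).

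**Figure D2:**
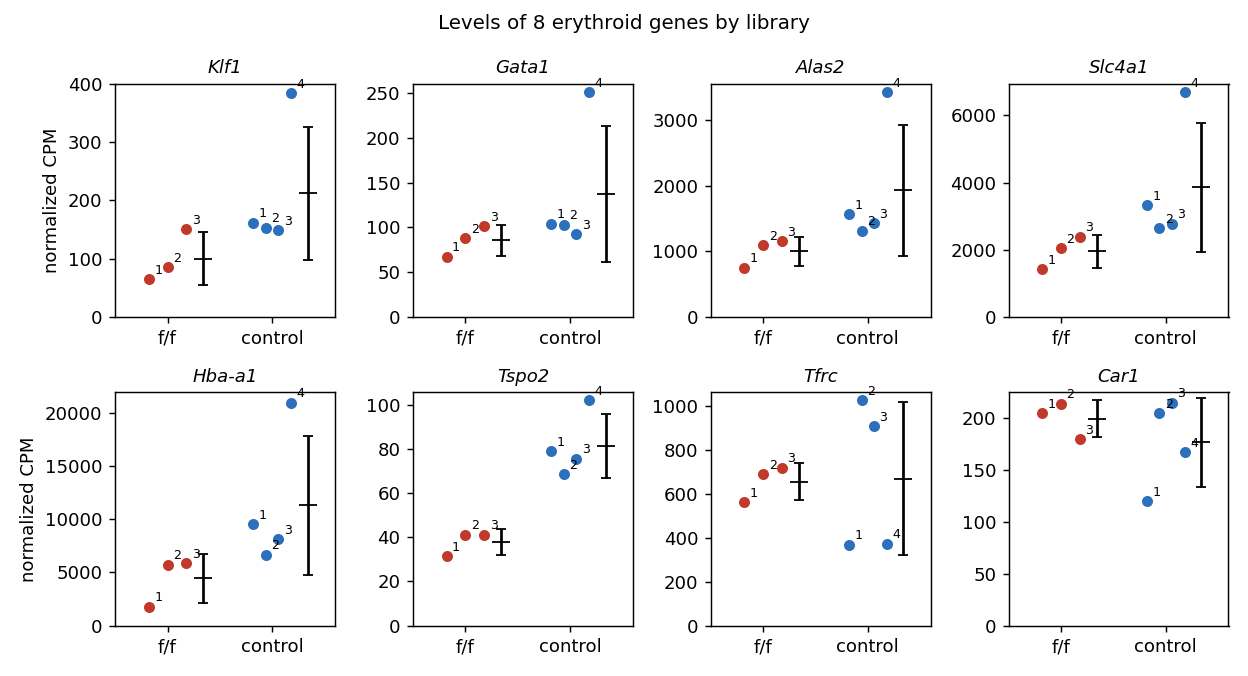
Level (TMM-normalized CPM, linear axes from 0) of 8 erythroid genes in each f/f library (red) and control library (blue), numbered by replicate, with the mean and SD of each group in black. Control 4 lies above the other controls in Klf1, Gata1, Alas2, Slc4a1, Hba-a1 and Tspo2, and controls 1 and 4 are low in Tfrc.

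The alpha globins were the most abundant genes of the set. Per kilobase of gene length, the mean control level was 20242 CPM for Hba-a1 and 12583 CPM for Hba-a2, followed by 976 for Alas2 and 847 for Slc4a1, and the lowest was 14.6 for Abcg4. The spread among the controls was wide (an SD of 6542 CPM on a mean of 11315 CPM for Hba-a1 before division by length), so neighbours in this order were not set apart. Hba-a1 (chromosome 11, 32283672 to 32284486) had 1782, 5724 and 5867 CPM in f/f 1 to 3 and 9519, 6661, 8110 and 20972 CPM in controls 1 to 4. In Hba-a2 (chromosome 11, 32296492 to 32297310) the levels were 2369, 3831 and 4080 CPM against 5644, 4436, 5357 and 12901 CPM. In both genes the groups did not overlap, with f/f 1 far below and control 4 far above the other 5 libraries. The log2 fold changes were -1.34 (SE 0.56) for Hba-a1 and -1.05 (SE 0.45) for Hba-a2, and without control 4 they were -0.86 (SE 0.46) and -0.59 (SE 0.29).

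The alpha globin genes are near-identical copies, so the split of reads between them is uncertain. Their coding sequences, 429 bases each in the GENCODE M21 transcripts, differ by 1 substitution, C381T, counted from the A of the start codon with the base of Hba-a1 first. The 250 bases before their starts share an unbroken run of 247 bases, and the GATA match in the Hba-a1 window printed above lies in that run. The ratio of Hba-a1 to Hba-a2 counts was 0.752 in f/f 1 and between 1.44 and 1.69 in the other 6 libraries. The ratio of alpha to beta globin counts (Hba-a1 and Hba-a2 over Hbb-b1 and Hbb-bs) was likewise lowest in f/f 1, at 1.05, and was 1.27 to 1.6 in the others. The low Hba-a1 level of f/f 1 was thus larger than its deficit in Hba-a2. The counting options for reads that map to more than 1 place are not given in the sources used here.

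**Figure D3:**
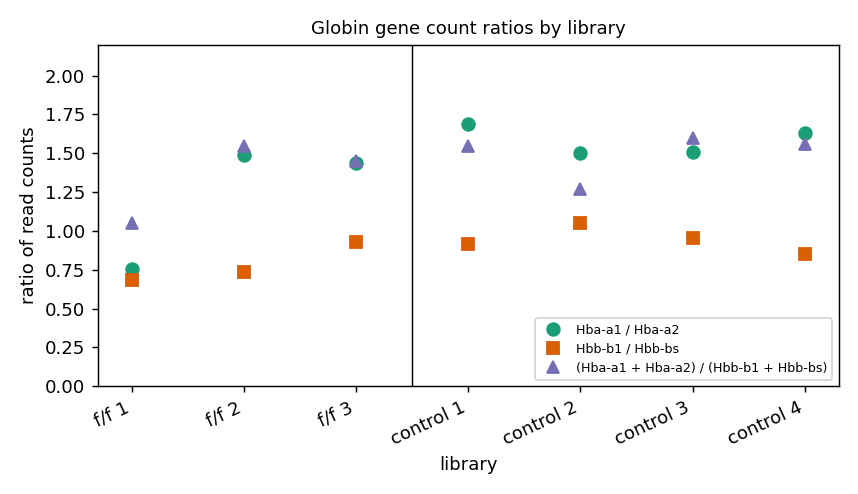
Ratio of read counts between globin genes (vertical axis, linear from 0) in each of the 7 libraries: Hba-a1 over Hba-a2 (circles), Hbb-b1 over Hbb-bs (squares) and both alpha over both beta genes (triangles). f/f 1 has the lowest Hba-a1 to Hba-a2 ratio, 0.752, while the other libraries lie between 1.44 and 1.69.

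The membrane genes code for the transporters, antigens and skeleton of the red cell surface. All 8 had negative log2 fold changes (median -0.56, from -1.04 to -0.31). Of these, 3 (Slc4a1, Rhd and Ank1) had an unadjusted p under 0.05 (5.03% of all genes, lower). Slc4a1, the anion exchanger known as band 3 (chromosome 11, 102348820 to 102365281), had 1422, 2038 and 2393 CPM in f/f 1 to 3 and 3326, 2633, 2771 and 6681 CPM in controls 1 to 4. Every f/f library was below every control (log2 fold change -0.98, SE 0.40), and without control 4 the value was -0.58 (SE 0.27). Rhd, the Rh blood group protein, had 125, 178 and 237 CPM against 295, 249, 230.0 and 703 CPM, and control 4 stood at 2.73 times the mean of the other controls, the highest such ratio of the 34 genes. Its log2 fold change of -1.04 (SE 0.43) was -0.52 (SE 0.25) without control 4. Its partner in the membrane complex, Rhag, did not share the control 4 peak. Rhag had 85.0, 95.9 and 94.9 CPM in the f/f libraries and 81.6, 151, 147 and 113 CPM in the controls (log2 fold change -0.42, SE 0.23).

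Relative to their level, the skeleton and its anchors varied less over the libraries than Slc4a1 and Rhd, but not less than Rhag. Sptb, beta spectrin, had 634, 771 and 913 CPM against 917, 943, 985 and 1641 CPM, which did not overlap although f/f 3 and control 1 were nearly level. Ank1, the ankyrin that ties spectrin to band 3, had 346, 440.0 and 554 CPM against 545, 592, 670.0 and 921 CPM (log2 fold change -0.61, SE 0.26). Epb42, which strengthens that link, had 136, 189 and 259 CPM against 201, 292, 318 and 347 CPM. In Ank1 and Epb42, f/f 3 was above control 1. The blood group antigens Kel (log2 fold change -0.53, SE 0.24) and Ermap (-0.31, SE 0.21) were also lowest among the controls in control 1, at 138 and 252 CPM. Sptb overlaps Plekhg3, and Ank1 overlaps long noncoding RNAs and the microRNA genes Mir486 and Mir3107.

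Of the 8 genes for the erythropoietin receptor, red cell enzymes and maturation, 7 had negative log2 fold changes. An unadjusted p under 0.05 was reached by 5 of these (5.03% of all genes, lower). In 6 the groups did not overlap (6.3% of all genes, lower). Tmcc2, a transmembrane protein with coiled coils, had 279, 397 and 548 CPM in f/f 1 to 3 and 748, 647, 621 and 1589 CPM in controls 1 to 4. Trim10, a RING finger protein of terminal erythroid maturation, had 116, 176 and 240.0 CPM against 299, 280.0, 290.0 and 569 CPM. Both were lower in every f/f library than in any control, with log2 fold changes of -1.14 (SE 0.40) and -1.02 (SE 0.34), and of -0.72 (SE 0.27) and -0.71 (SE 0.26) without control 4. Trim58, a ubiquitin ligase that acts in the expulsion of the nucleus, had 22.8, 30.6 and 27.3 CPM against 33.8, 34.2, 39.1 and 53.9 CPM. Bpgm, which makes the bisphosphoglycerate that loosens the hold of hemoglobin on oxygen, had 253, 344 and 352 CPM against 414, 428, 475 and 809 CPM. Abcg4, a sterol transporter, had 24.3, 28.6 and 39.9 CPM against 43.7, 45.8, 47.7 and 74.1 CPM. None of these 3 genes overlapped between the groups, and their log2 fold changes were -0.58 (SE 0.21), -0.75 (SE 0.29) and -0.77 (SE 0.25).

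The other 3 differed in pattern. Epor, the erythropoietin receptor, had 50.8, 60.9 and 64.5 CPM against 68.8, 72.3, 69.6 and 140.0 CPM, so that 3 controls were tightly placed just above the f/f libraries and control 4 stood apart (log2 fold change -0.58, SE 0.28, and -0.26, SE 0.14, without control 4). Xpo7, an exportin that acts as the nucleus condenses, had 376, 500.0 and 566 CPM against 485, 770.0, 813 and 732 CPM, with control 1 below f/f 2. It overlaps Dok2. Car1, the red cell carbonic anhydrase, was the single gene with a higher mean in the f/f libraries, at 205, 214 and 180.0 CPM against 120.0, 205, 215 and 167 CPM (log2 fold change 0.18, SE 0.22, adjusted p 0.724 with edgeR). The ranges of Car1 overlapped, and control 1 was again the low library.

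**Figure D4:**
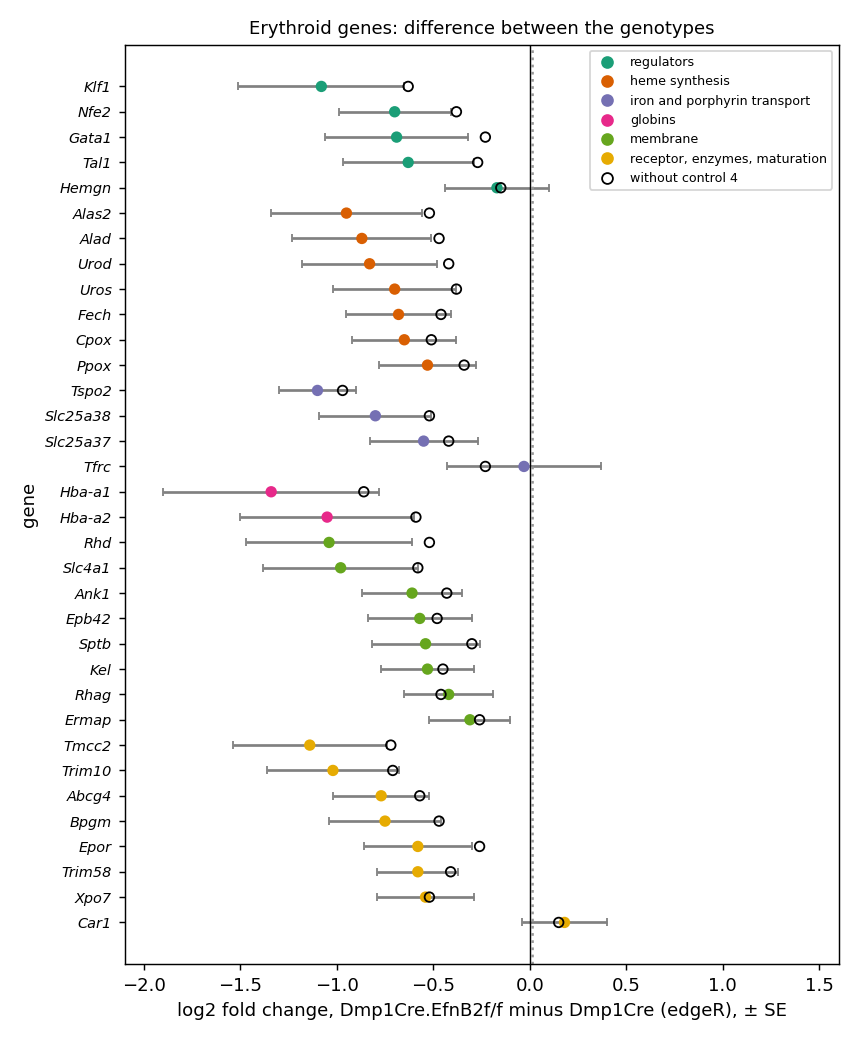
Log2 fold change (f/f minus control, edgeR) of 34 erythroid genes, coloured by role, with bars of ± 1 SE from all 7 libraries (filled points) and without control 4 (open circles). The dotted line is the median of all genes tested, 0.01. All genes but Car1 lie left of 0, and the open circles lie closer to 0 than the filled points except in Rhag and Tfrc.

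Without control 4 the 34 genes had a median log2 fold change of -0.46, with a range from -0.97 to 0.15, and that over all genes tested was again 0.01. Fewer genes, 8 of 34, then had an unadjusted p under 0.05, and 33 of 34 values were negative. The cross shared by f/f 3 and control 3 gave a comparison of 1 mouse with 1 mouse, which has no replicate check. Between them the median log2 difference was -0.25, from -0.87 for Tspo2 to 0.13 for Gata1, and the median over all genes was 0.00. Of the 34 genes, 30 were lower in f/f 3 and 4 were higher, namely Klf1 (0.02), Rhd (0.04), Tal1 (0.08) and Gata1 (0.13). Within that cross the difference was thus smaller than over all libraries, and 3 of the 5 regulators did not share its direction. The other crosses held mice of 1 genotype only, so for those mice cross and genotype cannot be told apart.

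The erythroid genes also differed among the controls, in an order that set the members apart from each other. Relative to the mean of controls 2 and 3, the log2 level in control 4 had a median of 0.81 over the 34 genes and ran from -1.37 for Tfrc to 1.56 for Rhd, where the median of all genes was 0.05. In control 1 the same difference had a median of -0.10, from -1.40 for Tfrc to 0.37 for Hba-a1, with 0.03 for all genes. The 6 genes that were lowest in control 1 were also at most slightly higher in control 4. Tfrc, Hemgn, Rhag, Car1, Kel and Xpo7 had control 1 values of -1.40, -0.99, -0.87, -0.80, -0.74 and -0.71, and control 4 values of -1.37, -0.18, -0.39, -0.33, 0.08 and -0.11. At the other end, Hba-a1, Hba-a2, Rhd and Klf1 had control 1 values of 0.37, 0.21, 0.30 and 0.11 and control 4 values of 1.51, 1.40, 1.56 and 1.35. These values share their reference, controls 2 and 3, so some likeness between the control 1 and control 4 values follows from the calculation.

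**Figure D5:**
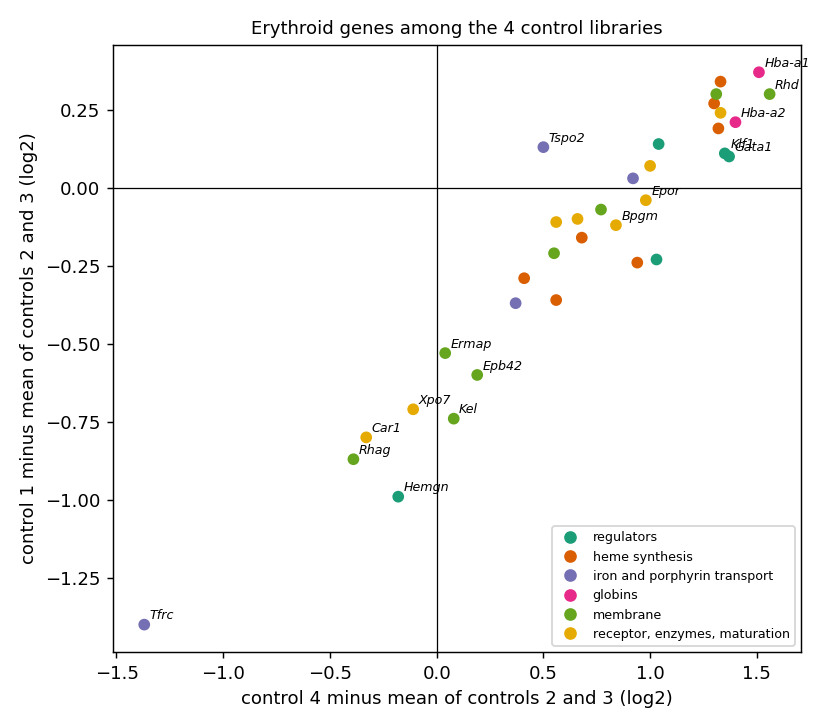
Difference of log2 level between control 4 and the mean of controls 2 and 3 (horizontal axis) against that between control 1 and the same mean (vertical axis), 1 point for each of 34 erythroid genes, coloured by role. Tfrc lies at the lower left (-1.37 and -1.40), and Hba-a1 and Rhd at the upper right (1.51 and 0.37, 1.56 and 0.30).

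Further genes of the same pathways were counted in 5 lists chosen by role, of which 89 genes were tested. Of these, 76 had negative and 13 positive log2 fold changes (median -0.39), 24 were lower and 2 higher at an unadjusted p under 0.05 (5.03% and 4.63% of all genes), and 0 passed the adjusted threshold in edgeR. The groups did not overlap, with the f/f libraries lower, in 21 of the 89 genes (6.3% of all genes). The beta globins followed the alpha globins. Hbb-b1 had 1614, 2617 and 3292 CPM in f/f 1 to 3 and 4687, 4459, 4122 and 9968 CPM in controls 1 to 4 (log2 fold change -1.21, SE 0.43), and Hbb-bs had 2349, 3561 and 3553 CPM against 5114, 4259, 4310.0 and 11748 CPM (-1.01, SE 0.44). In both every f/f library was below every control. How reads were split between these closely related genes was not tested.

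Among 25 other heme and iron genes, 21 had negative values, and 14 without control 4. At an unadjusted p under 0.05, 3 were lower and 1 was higher, the latter near the share over all genes of 4.63%. Of all genes, 5.03% were lower at that threshold, and these shares also stand beside the counts of the lists that follow. Among the lower ones were Tmem14c, which moves porphyrin in the mitochondrion (log2 fold change -0.78, SE 0.33), and Eif2ak1, the kinase that senses heme (-0.49, SE 0.20). The higher one was Clpx (0.69, SE 0.26), a mitochondrial chaperone that activates heme synthesis. Of 23 other regulators, 4 were lower (E2f2 -0.74, Foxo3 -0.48, Mafg -0.47, Klf13 -0.46), with Mafg being a small Maf partner of Nfe2. Of 21 other membrane and skeleton genes, 5 were lower, among them Icam4 (-0.99, SE 0.39), Kcnn4 (-0.90, SE 0.36) and Add2 (-0.82, SE 0.30). In that list 1 was higher, again near the share over all genes, namely Tpm1 (0.94, SE 0.34), a tropomyosin that is also made in muscle. All 16 other enzyme and maturation genes had negative values (median -0.77), and 14 without control 4 (median -0.41). With all libraries, 9 of the 16 had an unadjusted p under 0.05. Among these were Ube2o (-1.08, SE 0.35), Ube2l6 (-1.08, SE 0.40) and Pklr (-0.96, SE 0.32), the red cell pyruvate kinase. Of the 23 other regulators, 18 had negative values (median -0.30), and 17 without control 4 (median -0.14). In the membrane list 17 of 21 were negative with and without control 4 (medians -0.37 and -0.22). The 4 other globin genes tested were negative both ways (medians -1.08 and -0.64).

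Markers of other cells in the bone differed between the libraries too. All 10 neutrophil markers had negative log2 fold changes (median -0.51), 2 with an unadjusted p under 0.05, and their summed level was 13740 to 17090 CPM in the f/f libraries and 18683 to 21680 CPM in the controls, without overlap. All 10 skeletal muscle markers had positive values (median 0.75), 4 with an unadjusted p under 0.05, with sums of 28558 to 42168 CPM and 13495 to 30090 CPM. All 18 cell cycle genes had negative values (median -0.40), with sums of 3956 to 4367 CPM and 3583 to 5966 CPM. The 7 markers of early erythroid progenitors had a median of 0.05, with sums of 330 to 411 CPM and 334 to 419 CPM, and thus did not share the lower level of the 34 genes. The megakaryocyte markers summed to 2633 to 2787 CPM and 1964 to 4268 CPM, those of B lineage cells to 426 to 438 CPM and 278 to 480 CPM, and those of endothelium to 1128 to 1243 CPM and 923 to 1681 CPM. Of 10 megakaryocyte markers, 8 had negative values, none with an unadjusted p under 0.05, and without control 4 only 1 did. Of 10 B lineage markers 8 had positive values (10 without control 4), 1 with an unadjusted p under 0.05. Of 10 endothelial markers 8 had positive values (9 without control 4), 3 with an unadjusted p under 0.05. For all these lists, the shares over all genes at that threshold were 5.03% lower and 4.63% higher. The directions of the neutrophil, muscle and cell cycle markers were the same without control 4, and the median of the progenitor markers was then 0.21. No marker of any of these lists was at 0 in the table. The part that the amounts of these cells had in the erythroid result was not tested.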

How the data were processed

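RNA from 7 femora was sequenced as paired-end reads, and the authors demultiplexed them with bcl2fastq 2.17.1.14, mapped them to mm10 with Rsubread and deposited raw counts per Entrez gene from featureCounts, without normalization, filter or pooling. Strand and multimapping settings are not given in the sources used here. Replicates are separate mice. The 7 single-library files equal the series table.

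Genes were kept if 3 or more libraries reached 0.65 CPM (16302 of 27179), and 1204 predicted, pseudogene, unnamed, immunoglobulin, ribosomal RNA, Y and Xist genes were then left out. The other 15098 were tested with edgeR 4.0.16 (TMM, robust quasi-likelihood, Benjamini-Hochberg adjustment, threshold 0.05) in R 4.3.3. Standard errors (SE) are the absolute log2 fold change over the square root of F. DESeq2 1.42.0, limma 3.58.1 (prior count 2, quantile normalization, quality weights, no day block), other scalings and filters, blocks for replicate number or parent cross, and each library left out were the alternatives. The model was tested on simulated data. Positions, promoters and gene types came from RefSeq on GRCm38.p6, the build of mm10, and 25275 genes matched by ID. The members and lists were chosen with earlier results of these data known, and named genes are all members and, of each pathway list, those with an unadjusted p under 0.05 (at most the 6 lowest).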

Additional observations from a re-analysis of the deposited data

Results flagged for a closer look

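Among the 4 controls, 8 of the 34 erythroid genes had a library whose gap to its nearest neighbour, divided by the range of the log2 levels, was above Dixon's 95% limit for 4 samples, or 23.5%, where chance alone gives about 1 in 20 groups and 4.51% of all 15093 genes with counts in every control were above it. The genes share libraries, so these 8 are not independent of each other. Control 4 was the high library in 7 of them (as in 1.77% of all genes), with ratios of 0.929 for Epor, 0.91 for Klf1, 0.91 for Trim10, 0.878 for Gata1, 0.877 for Sptb, 0.853 for Slc25a38 and 0.836 for Abcg4. In Kel the ratio was 0.884 and control 1 was the low library.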

How the results depend on the processing

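The adjusted threshold was passed by 0 of 34 genes in edgeR under every scaling, filter, block and left-out library tried, by 1 with DESeq2 and by 18 with limma. The count at an unadjusted p under 0.05 (19) was 31 with limma, 5 with the replicate block and 1 to 24 with each library left out. It was 1 without f/f 1, 3 without f/f 2 and 8 without control 4. The counts over all genes, in either direction, moved too. They were 1459 in the main fit, 4962 with limma, 577 with the replicate block and 425 to 2369 with each library left out. For the parent cross block only effect sizes are given. The replicate numbers do not pair the samples, since same-numbered libraries deviated with correlations of -0.15, 0.07 and -0.44, and the median log2 fold change under that block was -0.46. It was -0.25 with the parent cross block, which rests on 1 mouse of each genotype, and -0.83 to -0.46 with each library left out. Directions turned under the parent cross block for Klf1 (0.02), Gata1 (0.13), Tal1 (0.08), Rhd (0.04) and Car1 (-0.26), and for Tfrc with library size only (0.01), without f/f 1 (0.07), without control 2 (0.26) and without control 3 (0.16), its range with each library left out being -0.23 to 0.26. Causes were not tested. Of 578 values for single genes, 550 kept direction and side of the threshold, 19 passed it only under DESeq2 or limma, and 9 turned direction. With the forward strand alone, motif shares were 21.9% (GATA), 25% (KLF), 3.12% (NF-E2) and 3.12% (TATA). With 3 and 4 mice, the SE of 0.20 to 0.56 limits what can pass.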
